A study of Homo sapiens with 23 samples.

Results

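The liver keeps blood glucose up between meals by gluconeogenesis, the synthesis of glucose from lactate, amino acids and glycerol, and insulin shuts this synthesis off. In this pathway PC turns pyruvate into oxaloacetate, PCK1 (in the cytosol) and PCK2 (in mitochondria) turn oxaloacetate into phosphoenolpyruvate, FBP1 removes a phosphate from fructose-1,6-bisphosphate, and G6PC releases free glucose from glucose-6-phosphate. The insulin receptor passes its signal through the docking proteins IRS1 and IRS2 to the kinase AKT, which keeps the transcription factor FOXO1 out of the nucleus, while PPARGC1A is a coactivator that works with FOXO1 on gluconeogenic genes and TXNIP is a glucose-induced gene that restrains glucose uptake. These 10 genes were taken by their symbols from the 60564 genes listed in every file. The rule did not use their values, but the list was chosen with earlier results of these data known. Excess fatty acids and impaired insulin action are both features of fatty liver disease, which the study modelled in a gut-liver chip.

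The mRNA of 23 libraries was measured, 11 from Caco-2, an established line from a human colorectal adenocarcinoma that forms an enterocyte-like layer, and 12 from HepG2, an established line from a human hepatocellular carcinoma. Per the paper the chip served for both cultures: a line was kept alone (mono-culture) or with circulating medium that also passed over the other line (co-culture). Each line received 1 mM free fatty acids (FFAs), palmitic and oleic acid at 1 to 2, or none (control) for 1 day. Per the paper, cells were starved in serum-free medium before the FFAs treatment. During treatment the labels give little serum (FBS) for controls and FFAs alike, while the paper's methods give none. No group with more serum was measured, so the part of low serum in the levels reported here was not tested. Each of the 8 groups had 3 libraries, except co-cultured control Caco-2 with 2. Values were TPM, a share of a library's transcripts that is scaled for transcript length and adds up to a fixed total in every library. TPM keep no read counts, so the depth and the counting error of each value are unknown, and a library without the gene is described as listed at 0. Between 20996 and 23689 genes were above 0 TPM in the Caco-2 libraries and between 19259 and 22416 in the HepG2 libraries. The paper describes repeated, independent experiments and biological replicates for its sequencing, but no source used here ties a library to its experiment or culture, so p-values measure the spread between these libraries, part of which may be technical.

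The line labels were checked with marker genes. Of 10 liver markers, 9 were higher in HepG2 in the mono-culture controls, among them ALB, the main plasma protein, and TF, the iron carrier, while VTN was lower in HepG2. All 9 intestinal markers tested, among them CDX2 and CDH17, were higher in Caco-2, and CDX1 was too low in both lines to test. Caco-2 also held liver transcripts, with ALB between 321 and 769 TPM against 20460 to 33859 TPM in HepG2. A second check used 34 genes with at least 50 TPM in HepG2 mono-culture controls and at most 1 TPM in those of Caco-2. Their summed level in Caco-2 libraries, as a percentage of the HepG2 mono-culture controls, was between 0.0883% and 0.242% in 9 libraries, but 0.825% in co-cultured control replicate 1 and 2.08% in co-cultured FFAs replicate 1. The sum of 63 Caco-2 genes in HepG2 libraries was between 0.127% and 0.613%.

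The start of 9 of the 10 genes was found in the RefSeq promoter table (GRCh38.p14), which gives 250 bases before and 50 after each start. PCK1 is named only. That source listed 3 promoters for PC and 2 each for PPARGC1A and TXNIP, and a single promoter per gene is reported here. The bases before the start are shown for 3 genes: G6PC and PPARGC1A, which were near 0 TPM in one line and near 20 TPM in the other, and TXNIP, whose level followed the replicate number in both lines. Capitals mark exact matches to the motifs searched.
G6PC, chr17:42900549-42900798, plus strand: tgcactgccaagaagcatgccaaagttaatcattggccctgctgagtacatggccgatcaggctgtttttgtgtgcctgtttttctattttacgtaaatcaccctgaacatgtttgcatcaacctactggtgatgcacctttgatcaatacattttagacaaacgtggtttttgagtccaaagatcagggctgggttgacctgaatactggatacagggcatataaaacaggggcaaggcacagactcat
PPARGC1A, chr4:23881102-23881351, minus strand: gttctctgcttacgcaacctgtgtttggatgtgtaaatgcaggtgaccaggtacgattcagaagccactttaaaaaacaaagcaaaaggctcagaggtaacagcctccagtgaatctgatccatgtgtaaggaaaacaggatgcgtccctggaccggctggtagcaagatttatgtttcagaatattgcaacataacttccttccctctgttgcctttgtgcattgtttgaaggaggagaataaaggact
TXNIP, chr1:145996580-145996829, minus strand: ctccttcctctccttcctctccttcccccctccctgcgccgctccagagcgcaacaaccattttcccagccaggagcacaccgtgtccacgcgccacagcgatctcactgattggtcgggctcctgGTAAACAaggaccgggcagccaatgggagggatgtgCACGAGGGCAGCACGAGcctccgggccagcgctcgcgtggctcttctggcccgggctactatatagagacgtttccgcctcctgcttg

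The letters searched on both strands were GTAAACA (forkhead, the family of FOXO1; in 3.42% of the 35116 promoters of the table), TGACGTCA and its part TGACG (cAMP response element, 1.85% and 24.6%), CACGTG (E-box, 7.26%), the direct repeat 1 of nuclear receptors (0.0228%) and the carbohydrate response element (0.501%). The last of these was added after the sequences had been seen. TXNIP held GTAAACA from base -124 and the carbohydrate response element from base -88, counted from the start. In the PC promoter reported here TGACG occurred 3 times, and in that of IRS1 CACGTG and TGACG lay after the start. PCK2, G6PC, FBP1, PPARGC1A, FOXO1 and IRS2 held none of these exact letters in the window reported. This says nothing about their other promoters or about the binding of a factor.

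**Figure D1:**
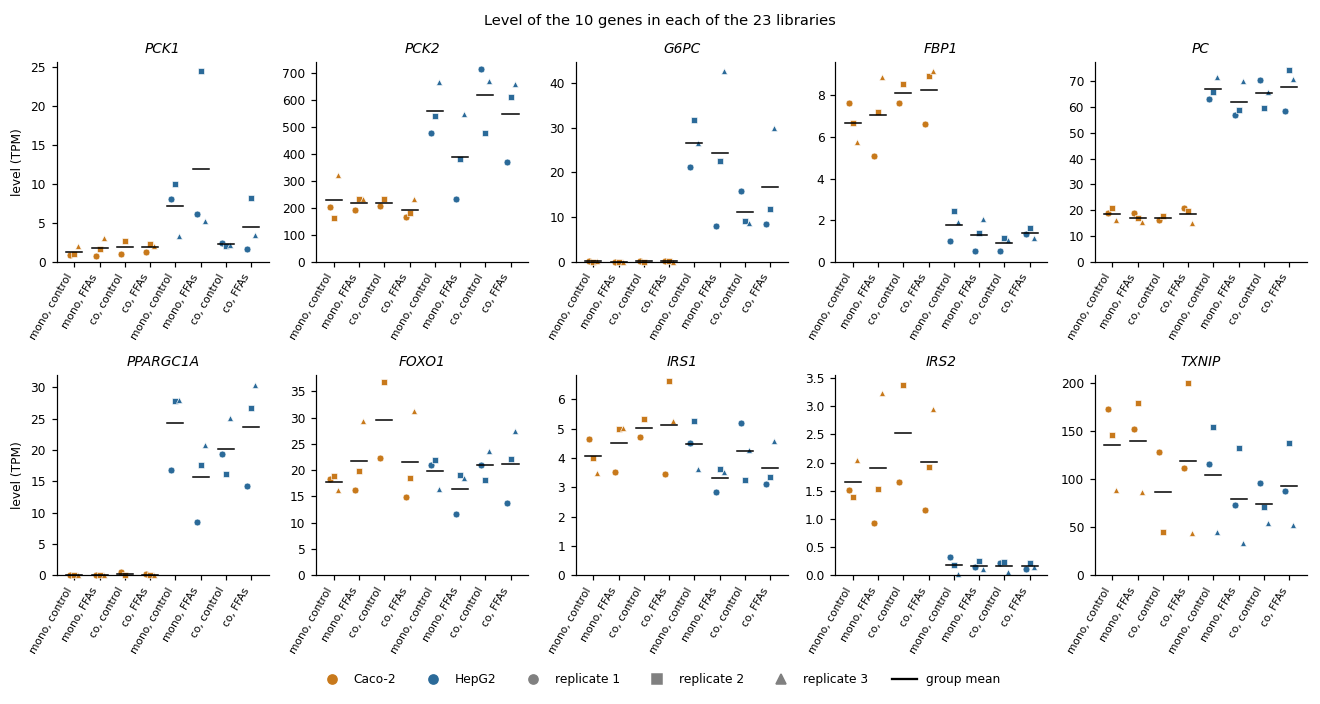
Level in TPM (linear axis from 0, a separate scale for each gene) of the 10 genes in each library, in 4 Caco-2 groups (orange) and 4 HepG2 groups (blue); symbols give the replicate number and bars the group mean. G6PC and PPARGC1A lie near 0 in Caco-2, FBP1 and IRS2 are higher in Caco-2, and for most genes the 4 groups of a line overlap.

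The 10 genes spanned a wide range of levels within each line. In HepG2 the order of median TPM was PCK2 (542), TXNIP (80.2), PC (65.8), PPARGC1A (20.1), FOXO1 (20.0), G6PC (18.5), PCK1 (4.33), IRS1 (3.63), FBP1 (1.24) and IRS2 (0.17). PCK2 was above TXNIP, PC above PPARGC1A, IRS1 above FBP1 and FBP1 above IRS2 in all 12 libraries with no overlap of their ranges, while the other neighbours in this order overlapped. In Caco-2 the order was PCK2 (205), TXNIP (128), FOXO1 (18.9), PC (17.6), FBP1 (7.64), IRS1 (4.72), IRS2 (1.66), PCK1 (1.59), PPARGC1A (0.05) and G6PC (0.04). There TXNIP was separate from FOXO1, PC from FBP1, IRS1 from IRS2 and PCK1 from PPARGC1A, and the other neighbours overlapped.

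Mitochondrial PCK2 was the main PEP carboxykinase transcript in both lines. Its level was 75.1 to 284 times that of PCK1 in the 11 Caco-2 libraries, with a median of 145, and 15.6 to 308 times in the 12 HepG2 libraries, with a median of 148. The 2 docking proteins were balanced differently: IRS1 was 1.56 to 3.80 times IRS2 in Caco-2 and 13.5 to 121 times IRS2 in HepG2.

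The first comparison was between the lines. In the mono-culture controls 7 of the 10 genes differed at an adjusted p under 0.05 (limma on log2(TPM + 1), Benjamini-Hochberg over 16495 genes), and the same 7 differed in the mean of the 4 conditions. The background was high: 62.4% of all genes tested were called in the mono-culture controls (23.4% higher and 39.0% lower in HepG2) and 79.0% in the mean (29.2% higher and 49.8% lower), so 7 of 10 is near the share of all genes. All genes tested had a median difference of -0.20 in the mono-culture controls and -0.24 in the mean, HepG2 minus Caco-2, and with median-of-ratios scaling of the TPM the median of all genes moved up by 0.23. With that scaling 6128 genes were higher and 6644 lower in HepG2 in the mean, against 4814 and 8216 with TPM as deposited, and 4770 were higher and 5264 lower in the mono-culture controls, against 3857 and 6429. No overlap between the mono-culture controls, with HepG2 above, was found in 25.5% of all genes and in 5 members, and with HepG2 below in 41.9% and in 2 members. Over all libraries the shares were 14.1% with 3 members and 28.6% with 2 members.

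Of the enzymes, PC, PCK1, PCK2 and G6PC were higher in HepG2 and FBP1 was higher in Caco-2. G6PC, the last enzyme of the pathway, was at 21.2, 31.8 and 26.6 TPM in the HepG2 mono-culture controls and at 0.09, 0.03 and 0.11 TPM in those of Caco-2. The groups lay far apart, and over all conditions no HepG2 library was below 7.90 TPM and no Caco-2 library above 0.18 TPM, with 2 Caco-2 libraries listed at 0. The difference of G6PC was 4.66 ± 0.43 (log2(TPM + 1), SE; adjusted p = 1.38e-08), on a scale that understates the change of low genes.

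PC, which makes oxaloacetate, was the steadiest of the enzymes. Its level was 63.0, 66.0 and 71.7 TPM in the HepG2 mono-culture controls and 18.8, 20.9 and 16.2 TPM in those of Caco-2. All 12 HepG2 libraries, from 56.7 to 74.5 TPM, lay above all 11 Caco-2 libraries, from 15.1 to 21.0 TPM. The difference was 1.79 ± 0.13 in the mono-culture controls and 1.83 ± 0.07 in the mean of the conditions.

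PCK2 was at 475, 538 and 666 TPM in the HepG2 mono-culture controls and at 204, 164 and 322 TPM in those of Caco-2, a difference of 1.32 ± 0.28 with no overlap. PCK1, the hormone-regulated cytosolic enzyme, was at 8.08, 9.92 and 3.28 TPM against 0.81, 0.97 and 1.97 TPM, a difference of 1.77 ± 0.50 (adjusted p = 0.00474). Over all conditions both genes overlapped between the lines, with PCK1 as low as 1.66 TPM in HepG2 and as high as 3.07 TPM in Caco-2. The mean differences over the conditions were 1.25 ± 0.14 for PCK2 and 1.19 ± 0.26 for PCK1 (adjusted p = 0.000336).

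FBP1 went the other way. The Caco-2 mono-culture controls held 7.64, 6.67 and 5.77 TPM and those of HepG2 1.02, 2.44 and 1.89 TPM. No HepG2 library (0.52 to 2.44 TPM) reached the lowest Caco-2 library (5.08 TPM). HepG2 minus Caco-2 was -1.49 ± 0.25 in the mono-culture controls and -1.89 ± 0.13 in the mean.

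Among the regulators, PPARGC1A was higher in HepG2 and IRS2 was higher in Caco-2. PPARGC1A was at 16.8, 27.9 and 28.1 TPM in the HepG2 mono-culture controls and at 0.03, 0.05 and 0.01 TPM in those of Caco-2, a difference of 4.58 ± 0.29. Its highest Caco-2 values, 0.48 and 0.21 TPM, were in the 2 co-culture libraries with the most HepG2 marker signal, 0.825% and 2.08% in that order. In the same order G6PC was at 0.07 and 0.18 TPM there, against up to 0.11 TPM in the Caco-2 mono-culture controls. The part of carried-over HepG2 RNA in these values was not tested. IRS2 was at 1.51, 1.39 and 2.05 TPM in the Caco-2 mono-culture controls and at 0.33, 0.19 and 0.03 TPM in those of HepG2. The ranges over all conditions, 0.93 to 3.38 TPM and 0.03 to 0.33 TPM, did not overlap, and the difference of IRS2 was -1.16 ± 0.26 in the mono-culture controls and -1.32 ± 0.13 in the mean.

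TXNIP, FOXO1 and IRS1 did not pass the threshold between the lines. TXNIP was at 172, 145 and 88.8 TPM in the Caco-2 mono-culture controls and at 115, 154 and 44.6 TPM in those of HepG2, a difference of -0.49 with a 95% interval from -1.70 to 0.72. FOXO1 was at 18.3, 18.9 and 16.2 TPM in Caco-2 and 21.0, 22.0 and 16.4 TPM in HepG2, a difference of 0.14 (-0.45 to 0.73), and its mean difference over the conditions, -0.18, became 0.05 with median-of-ratios scaling. IRS1 was at 4.65, 4.01 and 3.50 TPM in Caco-2 and 4.52, 5.27 and 3.64 TPM in HepG2, a difference of 0.11 (-0.31 to 0.54). Over the conditions IRS1 differed by -0.21 ± 0.10 (adjusted p = 0.0800). Leaving out 1 of 4 libraries (co-cultured or mono-cultured FFAs Caco-2 replicate 1, co-cultured control HepG2 replicate 1, or co-cultured FFAs HepG2 replicate 3) took that adjusted p to between 0.0220 and 0.0491.

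**Figure D2:**
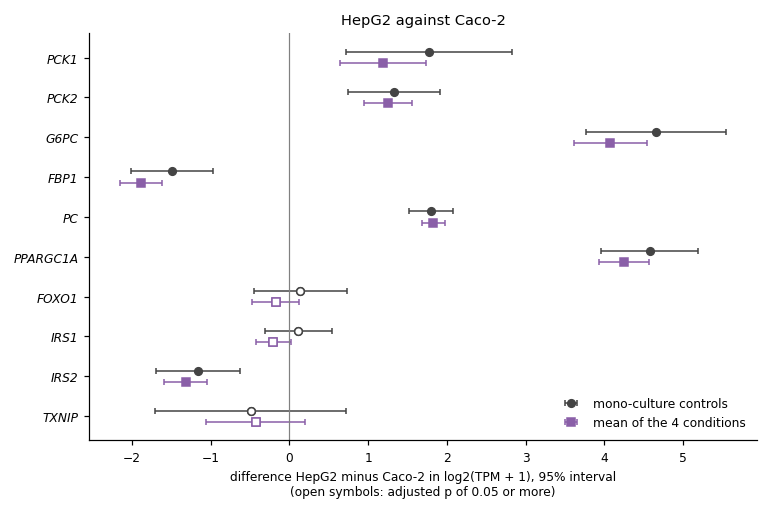
Difference HepG2 minus Caco-2 in log2(TPM + 1) with 95% intervals, for the mono-culture controls (circles) and the mean of the 4 conditions (squares); open symbols have an adjusted p of 0.05 or more. G6PC and PPARGC1A lie above 4, PC, PCK1 and PCK2 between 1.19 and 1.83, FBP1 and IRS2 below -1, and FOXO1, IRS1 and TXNIP have open symbols.

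The wider pathway was read from 7 lists with 104 genes in all, whose medians move with the scaling as the median of all genes does. The counts of called genes in each list stand beside the background of all genes in the mono-culture controls. There 23.4% of all genes tested were called higher and 39.0% lower in HepG2. Of 13 partner genes of gluconeogenesis tested in the mono-culture controls, 4 were higher and 5 lower in HepG2, with a list median of -0.02. SLC37A4, the transporter that brings glucose-6-phosphate to G6PC, was between 163 and 220 TPM in Caco-2 and between 30.9 and 60.4 TPM in HepG2 (difference -2.03 ± 0.17), the reverse of G6PC. The regulator PFKFB3, which makes the fructose-2,6-bisphosphate that inhibits FBP1, was also lower in HepG2 (-3.10 ± 0.21). GCKR, the liver regulator of glucokinase, was higher in HepG2 (3.55 ± 0.33).

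Of 19 transcriptional regulators tested, 6 were higher and 6 lower in HepG2 (list median -0.17). The coactivator PPARGC1B, a relative of PPARGC1A, was between 5.11 and 10.5 TPM in Caco-2 and between 0.75 and 1.79 TPM in HepG2, so that each line held more of a different one of the pair. Its difference was -1.97 ± 0.22. NR0B2, a repressor induced by bile acids, was higher in HepG2 by 5.17 ± 0.58.

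Of 24 insulin signalling genes tested, 8 were higher and 8 lower in HepG2 (list median 0.11). INSR, the insulin receptor, was higher in HepG2 by 1.06 ± 0.19, and PDPK1, a kinase that activates AKT, by 2.07 ± 0.22. GRB14, an inhibitor of the receptor, was lower in HepG2 (-2.33 ± 0.34). Of 14 FOXO target genes tested, 3 were higher and 5 lower (list median -0.14). IGFBP1, an insulin-repressed liver gene, was the extreme, at 103 TPM or more in every HepG2 library and at 2.29 TPM or less in every Caco-2 library.

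Smaller lists were also mixed. Of 7 insulin-induced genes tested, FASN (fatty acid synthase) was higher in HepG2 and EGR1 and SREBF1, a pair of transcription factors, were lower (list median 0.05). Of 10 genes around TXNIP, 2 were higher and 4 lower (list median -0.18); MLXIPL, the glucose-sensing factor that binds carbohydrate response elements, and its target PKLR were the 2 higher, by 3.85 ± 0.39 and 3.36 ± 0.31. Of 9 AMPK and cAMP pathway genes, 4 were higher and 2 lower (list median 0.42), with PRKACB, a catalytic subunit of protein kinase A, higher by 2.16 ± 0.23 and PRKAG1, an AMPK subunit, lower (-1.78 ± 0.17).

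The next comparisons asked what FFAs and co-culture did within a line. No member was called in any of them: 8 members were tested in Caco-2, where G6PC and PPARGC1A were below a mean of 1 TPM in every group, and 9 in HepG2, where IRS2 was. Few genes of any kind were called. In Caco-2 the called share of the 15081 genes tested was 0.00% for FFAs in mono-culture, 0.0199% for FFAs in co-culture, 0.0199% for co-culture in controls and 0.00% for co-culture with FFAs. In HepG2 it was 0.00% of 14255 genes in each of these comparisons. At an unadjusted p under 0.05, limma gave 2.61%, 2.83%, 5.43% and 6.09% of genes in Caco-2 and 2.24%, 1.84%, 7.53% and 5.63% in HepG2. Of the members, 0 in Caco-2 and 2 in HepG2 passed that unadjusted limit in these comparisons. The 7 lists had 0 called genes by limma in these 8 comparisons, against the same background, and between 0 and 3 genes of a list had an unadjusted p under 0.05.

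**Figure D3:**
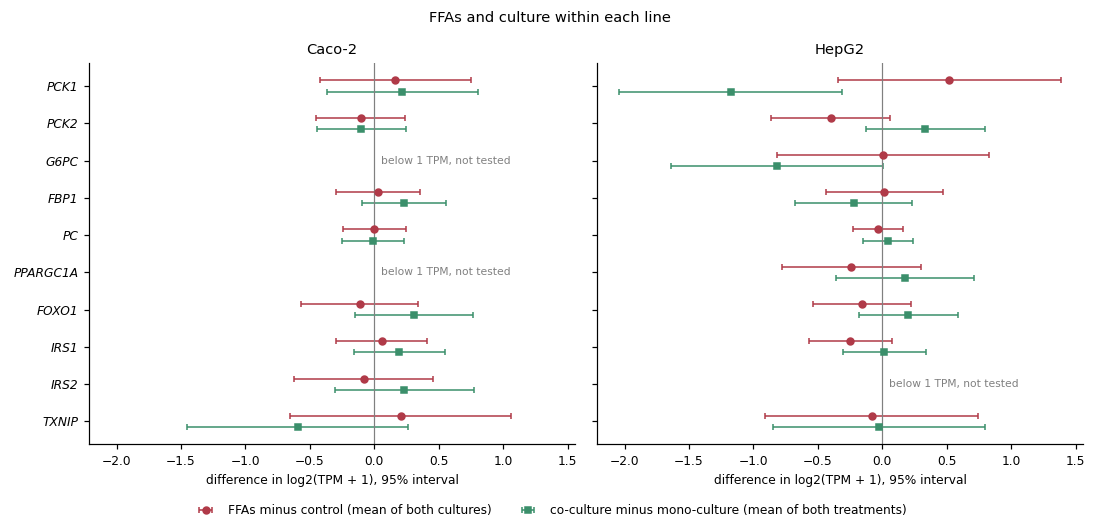
Differences in log2(TPM + 1) with 95% intervals for FFAs minus control (circles, mean of both cultures) and co-culture minus mono-culture (squares, mean of both treatments), Caco-2 on the left and HepG2 on the right. The interval of PCK1 for co-culture in HepG2, around -1.18, is the only one that leaves out 0, and its adjusted p was 0.272.

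In HepG2 the widest differences belonged to PCK1 and G6PC, the enzymes most used as readouts of insulin action, in the co-culture comparison. PCK1 in the controls was at 8.08, 9.92 and 3.28 TPM in mono-culture and at 2.46, 2.02 and 2.17 TPM in co-culture. Every co-cultured control was below every mono-cultured one, and the difference, co-culture minus mono-culture, was -1.23 ± 0.56 (adjusted p = 0.663). G6PC in the controls was at 21.2, 31.8 and 26.6 TPM in mono-culture and at 15.8, 9.16 and 8.61 TPM in co-culture, again with no overlap, a difference of -1.20 ± 0.53 (adjusted p = 0.649). With the replicate number as a block in limma the differences were -1.23 ± 0.42 for PCK1 (adjusted p = 0.262) and -1.20 ± 0.47 for G6PC (adjusted p = 0.310). A lower level in all co-cultured controls was found in 7.60% of all genes tested, and 2 of 9 members had it. General liver transcripts lay lower in the same comparison: all 10 liver markers had a negative difference, from -0.56 to -0.037 with a median of -0.29, against a median of -0.023 over all genes, and 0 of them were called. The summed level of the 34 HepG2 genes was 83.6% to 97.6% of the mono-culture controls in the co-cultured controls and 95.8% to 108% in the mono-cultured ones. These genes were chosen as high in the mono-culture controls, which are also the reference, so a lower sum elsewhere is no test of a fall. The part of this summed level in the differences of PCK1 and G6PC was not tested. In these bulk samples fewer expressing cells and less RNA per cell cannot be told apart.

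With FFAs the groups of both genes overlapped between the cultures, but PCK1 was lower in co-culture in all 3 pairs of libraries with the same number. PCK1 was at 6.13, 24.5 and 5.22 TPM in mono-culture and at 1.66, 8.20 and 3.45 TPM in co-culture, a difference of -1.12 ± 0.56 (adjusted p = 0.910, or 0.321 with the replicate number as a block). In this comparison 22.2% of all genes were lower in all 3 pairs, and in the controls 19.4%, among them PCK1, G6PC and FBP1. Most members went the other way with FFAs. The median difference of all genes tested was -0.011 in log2(TPM + 1), and 7 of the 9 members tested had a higher mean TPM in co-culture. Of these, PCK2, PC, PPARGC1A, FOXO1 and TXNIP were higher in co-culture in all 3 pairs, an order that 19.9% of all genes had. The highest PCK1 value of all, in mono-cultured FFAs replicate 2, stood well above the other 11 HepG2 libraries, which reached 9.92 TPM. G6PC was at 7.90, 22.5 and 42.55 TPM in mono-culture and at 8.39, 11.7 and 30.0 TPM in co-culture. Averaged over both treatments, the difference of PCK1 was -1.18 ± 0.40 (interval -2.04 to -0.31; adjusted p = 0.272), beside 12.5% of all genes at an unadjusted p under 0.05 and 0.0561% called. With the replicate number as a block in limma it was -1.18 ± 0.29 (adjusted p = 0.0589), not called, while 492 of 14255 genes were called.

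**Figure D4:**
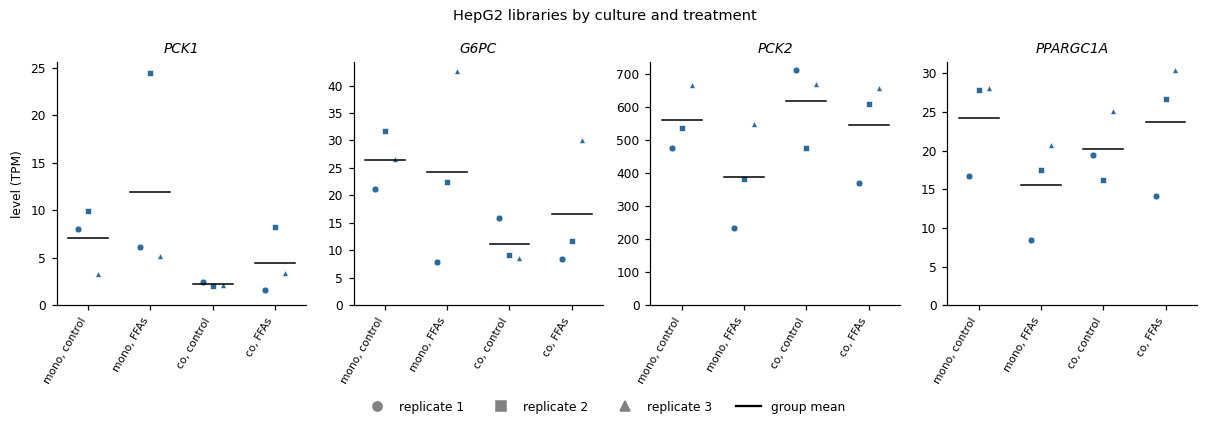
Level in TPM (linear axes from 0) of PCK1, G6PC, PCK2 and PPARGC1A in the 12 HepG2 libraries by culture and treatment; symbols give the replicate number and bars the group mean of 3 libraries. The co-cultured controls of PCK1 lie together between 2.02 and 2.46 TPM, one FFAs library reaches 24.5 TPM, and G6PC spreads from 7.90 to 42.55 TPM within 1 group.

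FFAs in mono-cultured HepG2 went with lower group means of 8 of the 9 members tested, none of them called. The median difference of all genes tested was 0.0036 in log2(TPM + 1), and the share of all genes with a lower mean was not computed. PPARGC1A was at 16.8, 27.9 and 28.1 TPM in controls and at 8.50, 17.5 and 20.8 TPM with FFAs, a difference of -0.65 with an interval from -1.41 to 0.11. With the replicate number as a block in limma its difference was -0.65 ± 0.20 (adjusted p = 0.850). PCK2 was at 475, 538 and 666 TPM in controls and at 234, 382 and 547 TPM with FFAs. In both genes the groups overlapped, every FFAs library was below the control with the same number, and the lowest library was FFAs replicate 1. The same order in all 3 pairs was found in 5 of the 9 members (PCK2, PC, PPARGC1A, IRS1 and TXNIP) and in 14.5% of all genes tested. In that library the summed level of the 34 HepG2 genes was also lowest, at 70.8% of the mono-culture controls. It was 85.6% and 100% in the other 2 FFAs libraries and 95.8% to 108% in the controls, by which these genes were chosen. The part of this sum in these differences was not tested. IRS1 alone had separate groups, from 2.84 to 3.61 TPM with FFAs and from 3.64 to 5.27 TPM in controls, a pattern of 3.37% of all genes tested. The member with a higher group mean was PCK1, by 0.47 (-0.75 to 1.69), which became -0.17 without FFAs replicate 2.

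With FFAs in co-cultured HepG2, 7 of the 9 members had a higher mean TPM, and 6 had a higher mean of log2(TPM + 1), FOXO1 being the one that changed sign. The median difference of all genes tested was 0.0085 in this comparison. The difference of PPARGC1A was within its error there, with 19.4, 16.2 and 25.1 TPM in controls and 14.2, 26.6 and 30.4 TPM with FFAs. PCK2 was at 712, 475 and 668 TPM in controls and at 370, 609 and 658 TPM with FFAs, a difference of -0.20 (-0.85 to 0.45), which became 0.055 without FFAs replicate 1. That library held the lowest PCK1, PCK2, G6PC, PC, PPARGC1A, FOXO1 and IRS1 of its group, but not the lowest FBP1 or TXNIP. Its sum of the 34 HepG2 genes was 72.6% of the mono-culture controls, against 94.1% and 103% in the other FFAs libraries of the co-culture. The part of this library in these differences was not tested. PCK1 had the widest difference, 0.57 (-0.65 to 1.79). FBP1 had separate groups, from 0.53 to 1.12 TPM in controls and from 1.15 to 1.60 TPM with FFAs, which 3.02% of all genes tested also had, and its level is close to the filter of 1 TPM. All 9 interaction terms of FFAs and culture were positive in HepG2, between 0.10 and 0.83, and none was called (0.00% of all genes; smallest unadjusted limma p of a member = 0.118). The median term of all genes tested was 0.0081, and the share of all genes with a positive term was not computed. Neither the terms nor the group means are independent of each other, since the same libraries enter all members.

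In Caco-2 the co-cultured controls were compared first. FBP1 was at 7.64, 6.67 and 5.77 TPM in mono-cultured controls and at 7.66 and 8.57 TPM in co-cultured controls, with no overlap. FOXO1 was at 18.3, 18.9 and 16.2 TPM in mono-cultured and at 22.4 and 36.8 TPM in co-cultured controls, a difference of 0.66 (-0.02 to 1.34; adjusted p = 0.867). IRS1 also lay higher in both co-cultured controls, at 4.72 and 5.32 TPM against 3.50 to 4.65 TPM. With 2 against 3 libraries such separation is frequent: 15.1% of all genes tested were higher in both co-cultured controls. TXNIP had the lowest difference, -0.77 (-2.05 to 0.51), from 128 and 45.3 TPM in co-culture against 88.8 to 172 TPM in mono-culture. With FFAs FOXO1 overlapped between the cultures (14.9, 18.5 and 31.3 TPM in co-culture, 16.2, 19.9 and 29.3 TPM in mono-culture), and so did all other members.

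With FFAs no member was called in Caco-2. In mono-culture the differences lay between -0.12 for PC and 0.25 for PCK1, and in co-culture between -0.46 for FOXO1 and 0.38 for TXNIP. In each of these comparisons the values of all members overlapped between treated and control libraries. PCK2, the most abundant member, was at 193, 231 and 231 TPM with FFAs and at 204, 164 and 322 TPM without in mono-culture, and at 167, 180 and 233 TPM with FFAs and 205 and 233 TPM without in co-culture. In mono-culture the 95% intervals of PCK1 and TXNIP reached 1 on the log2 scale in at least 1 direction and those of the other 6 members tested did not.

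The lines were also compared for their responses. For co-culture, the difference between HepG2 and Caco-2 was lowest for PCK1, at -1.39 ± 0.52 (adjusted p = 0.211). With the replicate number as a block within each line PCK1 was called, at -1.49 (adjusted p = 0.0396), although the same-numbered Caco-2 libraries did not pass the check of pairing. The difference was highest for TXNIP, at 0.57 ± 0.60. Of all genes 14.6% had an unadjusted p under 0.05 in this comparison and 0.533% were called without the block, and of the 10 members 1 and 0. For FFAs the difference between the lines ran from -0.30 for IRS1 to 0.36 for PCK1, with 0 members and 0.0182% of all genes called. Across the 4 groups of a line limma's moderated F test called no member, with 0.0133% of genes called in Caco-2 and 0.00% in HepG2; in HepG2 PCK1 had the smallest unadjusted p of a member, 0.0496. By the study's own criteria for differences among the 4 groups, an unadjusted analysis of variance with a minimum fold, 0 members passed in either line. These criteria were applied here to log2(TPM + 1) of the members only. The share of all genes that meet them was not computed, so this count has no background beside it.

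The spread within groups had an order of its own. TXNIP was lowest in replicate 3 in all 4 HepG2 groups, at 44.6, 33.5, 54.4 and 52.5 TPM against 70.8 to 154 TPM in the other 8 libraries, as were 13.6% of the genes tested in HepG2. It was lowest in replicate 3 in the 3 Caco-2 groups with 3 libraries as well, at 88.8, 86.3 and 44.1 TPM against 111 to 199 TPM in replicates 1 and 2 of those groups. Of the 12841 genes tested in both lines 2.25% were lowest in replicate 3 in all 7 groups, and TXNIP was the only member among them. In co-cultured control Caco-2, with 2 libraries, replicate 2 was low, at 45.3 TPM.

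Other members followed the replicate number in 1 line. IRS2 in Caco-2 was highest in replicate 3 in all 3 full groups (2.05 to 3.23 TPM against 0.93 to 1.93 TPM), as were 12.3% of the genes tested there, and in the group of 2 it was higher in replicate 2 (3.38 against 1.66 TPM). PC in Caco-2 was lowest in replicate 3 in those groups (15.1 to 16.2 TPM), with 7.81% of genes, and PCK1 lowest in replicate 1 (0.68 to 1.29 TPM), with 7.20%. PPARGC1A in HepG2 was highest in replicate 3 in all 4 groups (20.8 to 30.4 TPM), with 10.1% of genes. Replicate 3 also had the most genes above 0 TPM of its group in all 7 groups; whether depth or handling differed by replicate number was not tested. ARRDC4, which like TXNIP belongs to the glucose-induced arrestin family, was between 7.66 and 16.9 TPM over all libraries. Its replicate 3 was lowest only in the co-cultured FFAs groups, at 7.66 TPM in Caco-2 and 12.2 TPM in HepG2. Replicate 3 was the highest in the mono-cultured controls of Caco-2 (14.1 TPM) and HepG2 (11.6 TPM) and in co-cultured control HepG2 (16.4 TPM).

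**Figure D5:**
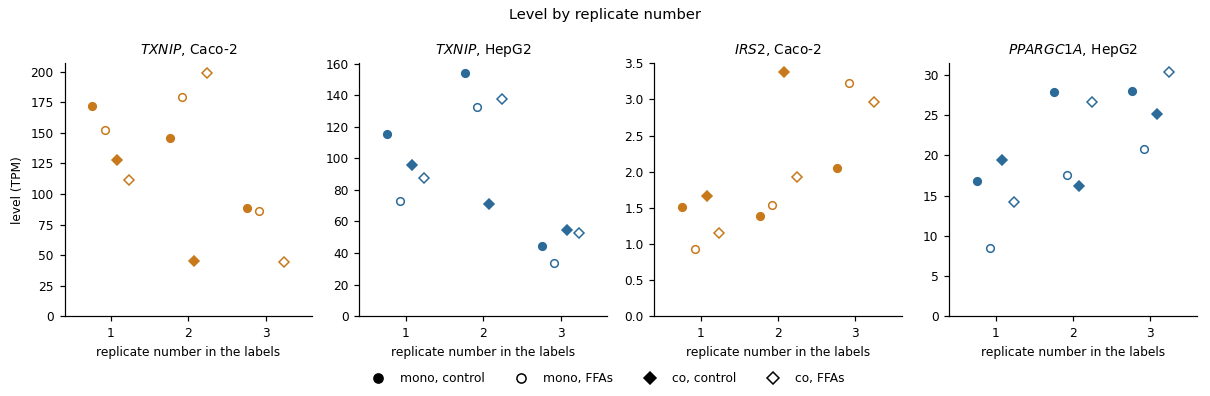
Level in TPM (linear axes from 0) by the replicate number in the labels, for TXNIP in Caco-2 and HepG2, IRS2 in Caco-2 and PPARGC1A in HepG2; circles are mono-culture, diamonds co-culture, filled symbols controls and open symbols FFAs. TXNIP is low in replicate 3 in both lines, at 33.5 to 88.8 TPM, and in replicate 2 of co-cultured control Caco-2, which has no replicate 3.

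For each member the 3 genes most like it over the libraries of the line with its higher median TPM (for FOXO1, IRS1 and TXNIP a choice between lines that did not pass the test) were found by Pearson's r of log2(TPM + 1), as a description over libraries that share scaling and culture. PCK2 over the 12 HepG2 libraries was most like ASNS (asparagine synthetase; r = 0.98), MARS and YARS (tRNA synthetases for methionine and tyrosine; both r = 0.98). G6PC was most like AHSG (fetuin-A, a liver plasma protein), CBX7 and HPN (r = 0.97 each), PCK1 like HIST2H2AA3, TET1 and DDTL (0.92 to 0.95), and PPARGC1A like ACVR2B, SERPINB9 and SLC7A11 (0.93 each). PC was most like NFIX, LTB4R and MNX1-AS1 (0.91 to 0.92) and FOXO1 like WASF1, UBALD2 and PKD1P1 (0.95 to 0.96). Over the 11 Caco-2 libraries FBP1 was most like TSPAN3, UBTD2 and SNTB1 (0.94 to 0.95), IRS1 like BAIAP2-DT, ACAD10 and FOXN3 (0.95 to 0.96), IRS2 like ENC1, OVOL1 and TUFT1 (0.97 each) and TXNIP like SDHB, ZBTB6 and ABCA3 (0.91 to 0.93). HIST2H2AA3 and DDTL have near-identical copies and PKD1P1 is a pseudogene, so reads may be shared with other genes and their values are uncertain.

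Among the members themselves, PCK2, PPARGC1A and PC varied together over the HepG2 libraries, with r of 0.88 for PCK2 and PPARGC1A, 0.86 for PCK2 and PC and 0.81 for PC and PPARGC1A. PCK1 stood apart from PCK2 (r = -0.29) and was weakly related to G6PC (r = 0.40), although both had lower co-cultured controls. In Caco-2 TXNIP ran against IRS2 (r = -0.75) and FOXO1 (r = -0.75), and IRS2 ran with FOXO1 (r = 0.88). These values rest on few libraries and include the differences by replicate number given above.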

How the data were processed

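Messenger RNA was amplified with SMART-Seq v4, per the labels; per the paper's methods, Takara Bio made and sequenced such libraries on a NovaSeq instrument. Per the paper's methods, reads of rRNA, tRNA and the mitochondrial genome were removed with Bowtie2 2.1.0, mapping of what remained used STAR 2.7.1a and GRCh38, and the authors deposited one TPM table per library, calculated with RSEM 1.3.0, with no counts. The labels give 0.5% FBS during treatment, whereas the methods describe serum-free medium with albumin. Groups and replicate numbers came from the labels.

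log2(TPM + 1) was tested with limma 3.58.1 (R 4.3.3; eBayes with trend), with the 4 groups of a line in one fit, or all 8 for comparisons between lines, keeping genes whose mean reached 1 TPM in any group, and p-values were adjusted by Benjamini-Hochberg over all genes kept, at 0.05. Tables and figures used Python 3.11.15, pandas 2.3.3 and matplotlib 3.10.9. The fit was tested on simulated data. The members and lists were chosen with earlier results of these data known. Named genes were the 10 members and, from the lists, some of the called genes among the 6 smallest p per list, chosen for their role in the pathway; ARRDC4, PDK4, IGFBP1, SREBF1 and GOT1 were given by library after their values had been seen. Same-numbered libraries deviated together, with every correlation of their deviations from the group means above 0.1, in HepG2 for FFAs in mono-culture (0.17 to 0.50) and for co-culture in controls (0.11 to 0.46) and with FFAs (0.31 to 0.60). The other 5 within-line comparisons failed this check, and no source used here says what a number shared. Alternatives were a replicate block, a pseudocount of 0.1, median-of-ratios scaling, no filter and leaving out each library. Gene positions were not converted between builds.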

Additional observations from a re-analysis of the deposited data

How the results depend on the processing

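The 7 called line differences kept their direction and their call under every alternative run, and 0 members were called in the 16 within-line tests under every alternative, including the study's criteria for the 4 groups. The number of members called between the lines was 7 in the mono-culture controls without each library in turn and 7 to 8 in the mean of the conditions; the added one was IRS1. With the replicate number as a block within each line, 1 member, PCK1, was called for the difference between lines in the co-culture effect, at -1.49 (adjusted p = 0.0396), against 0 without it; its adjusted p over the other alternatives was 0.117 to 0.427 without each library in turn, and same-numbered Caco-2 libraries were not paired by the check. The block changed no within-line call of a member; over all genes it raised the calls for co-culture averaged over treatments from 8 to 492 in HepG2 and from 0 to 60 in Caco-2, for co-culture in controls from 0 to 6 in HepG2 and from 3 to 5 in Caco-2, for co-culture with FFAs from 0 to 1 in HepG2, and for the difference between lines in the co-culture effect from 88 to 835. A block within each line leaves no contrast between lines, so a number shared by both lines was used there, a choice made after the data had been seen; it changed no call of a member. FOXO1 in the mean of the conditions reversed to 0.046 with median-of-ratios scaling.

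Without 1 library the direction of some differences that were not called reversed, with these ranges over the libraries left out. In Caco-2 these were TXNIP for FFAs in co-culture (-0.36 to 1.12; without co-cultured control or FFAs replicate 2), TXNIP for co-culture with FFAs (-0.91 to 0.16; without co-cultured FFAs replicate 3) and PCK1 for FFAs in mono-culture (-0.074 to 0.56; without FFAs replicate 3). In HepG2 they were PCK1 for FFAs in mono-culture (-0.17 to 0.84; without FFAs replicate 2) and PCK2 for FFAs in co-culture (-0.38 to 0.055; without FFAs replicate 1). Between the mono-culture controls of the lines it was TXNIP (-0.85 to 0.029; without HepG2 replicate 3). TPM hold no depth, so counting error is not separable from the spread between libraries, and 2 or 3 libraries per group leave intervals of more than 1 log2 unit on either side for PCK1 and TXNIP in several comparisons.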

Other observations

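Several partner genes of the pathway differed with FFAs only at an unadjusted p, and their values are given here because they were the extremes of their lists; they were picked after the values had been seen. SREBF1, the insulin-induced regulator of fatty acid synthesis, was at 82.9, 81.7 and 64.5 TPM in mono-cultured control Caco-2 and at 47.1, 64.6 and 62.3 TPM with FFAs, and in co-culture at 82.1 and 71.7 TPM without and 49.4, 44.6 and 52.3 TPM with FFAs. The mean difference over the cultures was -0.52 ± 0.10 in Caco-2 (adjusted p = 0.705) and -0.42 ± 0.13 in HepG2 (adjusted p = 1.00), beside 3.99% and 3.49% of all genes with an unadjusted p under 0.05. GOT1, a cytosolic aminotransferase that interconverts aspartate and oxaloacetate, was between 207 and 281 TPM in the 6 control HepG2 libraries and between 154 and 239 TPM in the 6 FFAs libraries, a mean difference of -0.42 ± 0.10 (adjusted p = 1.00).

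PDK4, which spares pyruvate by inhibiting its dehydrogenase, was at 0.51 and 0.73 TPM in co-cultured control Caco-2 and at 2.38, 5.14 and 3.49 TPM with FFAs, a difference of 1.49 ± 0.37 (adjusted p = 1.00). In that comparison 8.27% of all genes tested were higher in every FFAs library than in every control. In mono-culture PDK4 was at 0.75, 0.90 and 0.76 TPM without and 0.82, 1.18 and 3.56 TPM with FFAs. In HepG2 PDK4 was below the filter and was not tested: all 6 control libraries lay between 0.03 and 0.07 TPM and all 6 FFAs libraries between 0.14 and 0.33 TPM. Of the genes that were tested, 0.0491% were higher in all 6 FFAs libraries without overlap. PDK4 is not among them, and its values lie near 0, where the counting error is unknown. IGFBP1, a FOXO target, varied widely with FFAs in HepG2, at 107, 345 and 755 TPM against 722, 856 and 1280 TPM without in mono-culture, and at 103, 701 and 1233 TPM against 822, 455 and 1153 TPM without in co-culture, and was lowest in replicate 1 in 3 of the 4 groups.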
